A study of Mus musculus with 16 samples.

Results

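The transcripts of 6 surface proteins that serve as markers of skeletal stem cells were followed across 4 cell populations sorted from mouse femur. They are Cd200, Thy1, Enpep, Mcam, Nt5e and Pdpn, taken as the 6 rows that carry these symbols among the 22559 genes of the expression table. All 6 were among the 13797 genes that passed the filter on low values. The groups were periosteal stem cells (PSC), periosteal progenitor cells of type 1 (PP1) and type 2 (PP2), and endosteal mesenchymal stem cells (MSC), with 4 libraries each and 16 in all. Every group, MSC included, came from femurs of C57/B6 mice of age day 6 with the genotype CTSK-cre+ mTMG, from 1 litter on 1 day, without pooling. Cre driven by the Ctsk promoter makes a reporter cell exchange its red membrane protein for membrane GFP, a change that daughter cells inherit, and MSC were the GFP-negative sort. The Ctsk promoter is also active in osteoclasts, so GFP alone does not mark skeletal cells only. The labels do not state whether the 4 libraries within 1 group are different mice, and the p-values below rest on the spread between these libraries, which may be technical.

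The 6 proteins do different work at the cell surface. CD200 is an immunoglobulin-family ligand of an inhibitory receptor on myeloid cells. THY1 (CD90) is a lipid-anchored immunoglobulin-family protein of fibroblasts and, in mouse, of T cells. ENPEP (aminopeptidase A, the 6C3 antigen) trims angiotensin peptides. MCAM (CD146) is an adhesion molecule of pericytes, smooth muscle and endothelium. NT5E (CD73) makes adenosine from AMP outside the cell, and PDPN (podoplanin) is a mucin-type protein of fibroblasts, lymphatic endothelium and young osteocytes. In mouse, skeletal stem cells have been defined as positive for CD200 and negative for THY1 and 6C3. In human bone they have been defined as positive for podoplanin, CD73 and CD164 and negative for CD146.

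The gates are not in the labels. As published for these populations, GFP-positive cells negative for THY1 and 6C3 were divided by CD200 and by CD105, the product of Eng, with PSC positive for CD200 and PP2 positive for CD105. The gate of MSC is not given in the sources used here. A difference in Cd200 among sorts made with an antibody to CD200 is no finding, and tests of Thy1 and Enpep carry the same limit. Mcam, Nt5e and Pdpn are not named in that gate.

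On the mm10 assembly (GRCm38), by the GENCODE M21 annotation, Cd200 (ENSMUSG00000022661) lies on the minus strand at chr16:45382135-45409053, Enpep (ENSMUSG00000028024) on the minus strand at chr3:129269175-129332720 and Pdpn (ENSMUSG00000028583) on the minus strand at chr4:143267431-143299564. The other three are on the plus strand of chromosome 9. Thy1 (ENSMUSG00000032011) is at chr9:44043384-44048579, Mcam (ENSMUSG00000032135) at chr9:44134469-44142727 and Nt5e (ENSMUSG00000032420) at chr9:88327197-88372092. Thy1 and Mcam are thus close neighbours, 85.9 kb apart. An annotated antisense gene, Gm10687, overlaps exon sequence of Mcam. Whether the counting used strand is not stated, so reads of this pair cannot be told apart.

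The promoters of the 3 members outside the gate are shown because these genes had 3 different patterns across the sorts. Each line holds the 250 bases before the RefSeq start on GRCm38.p6, 5′ to 3′ on the gene's strand. The windows are chr9:44134408-44134657 for Mcam (plus strand), chr9:88327359-88327608 for Nt5e (plus strand) and chr4:143299565-143299814 for Pdpn (minus strand). By the GENCODE coordinates above, the Nt5e window lies inside the annotated gene and the Mcam window spans the annotated start. Distances below thus hold for the RefSeq start only. Capitals mark GC boxes (GGGCGG), the cyclic AMP response element (TGACGTCA) and TATA boxes (TATAAA), searched on both strands.
Mcam: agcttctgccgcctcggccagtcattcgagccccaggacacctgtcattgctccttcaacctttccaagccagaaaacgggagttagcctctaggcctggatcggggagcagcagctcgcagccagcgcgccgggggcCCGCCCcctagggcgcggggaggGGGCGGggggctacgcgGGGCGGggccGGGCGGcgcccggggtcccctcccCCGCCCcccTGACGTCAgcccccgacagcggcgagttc
Nt5e: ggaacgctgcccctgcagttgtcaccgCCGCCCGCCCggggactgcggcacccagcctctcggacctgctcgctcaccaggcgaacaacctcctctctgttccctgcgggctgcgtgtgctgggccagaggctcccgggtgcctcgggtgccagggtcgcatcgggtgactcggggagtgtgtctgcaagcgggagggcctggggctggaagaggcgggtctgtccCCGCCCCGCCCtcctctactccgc
Pdpn: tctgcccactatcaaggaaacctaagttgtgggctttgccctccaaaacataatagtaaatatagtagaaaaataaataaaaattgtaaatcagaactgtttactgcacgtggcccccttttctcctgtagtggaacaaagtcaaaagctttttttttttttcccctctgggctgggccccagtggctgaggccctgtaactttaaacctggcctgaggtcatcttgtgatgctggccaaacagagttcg
The Mcam window held 5 GC boxes and 1 cyclic AMP response element, whose first base lies 29 bases before the RefSeq start. The Nt5e window held 4 GC boxes, and the Pdpn window held none of the 3 motifs. Among 32851 RefSeq promoter windows of the same length, 32.7% held a GC box, 1.55% the cyclic AMP response element and 12.4% a TATA box. The windows of Mcam and Nt5e held 25 and 21 CG pairs, that of Pdpn 2, and the median window 6. Of the other members in the promoter table, the Enpep window held 1 TATA box, on the opposite strand, and the Cd200 window 1 GC box. These matches describe letters and not binding.

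The libraries held 22.3 to 48.4 M recovered reads, with MSC at 39.5 to 48.4 M. Genes with a read numbered 12986 to 13919 in PSC, 12580 to 12922 in PP1, 11653 to 13165 in PP2 and 15506 to 15696 in MSC. PP2 replicates 1 and 3 had the fewest genes of all libraries (12196 and 11653), and results that rest on them are given with and without them. Values are normalized counts, which are read counts divided by 1 size factor per library. Eng, whose protein marks PP2 in the published gate, averaged 376 ± 67.3 in PSC, 715 ± 121 in PP1 and 4649.6 ± 954 in PP2, against 469.7 ± 92.4 in MSC (SD, n = 4 each). Ctsk, whose promoter drives the reporter, averaged 2751 ± 558 in PSC, 12338 ± 1870.4 in PP1 and 7393 ± 789 in PP2, against 2082 ± 136 in MSC. The summed level of 5 osteoclast markers, cells that also transcribe Ctsk, ranged over 600.4 to 1507 in PSC, 2572 to 14969 in PP1, 589 to 2517 in PP2 and 6083 to 7659 in MSC. In MSC nearly all of this sum was Mmp9, at a mean of 6763 ± 652. Acp5, another of these markers, averaged 220 ± 24.6 in MSC and 3448 ± 2546 in PP1. The summed level of 4 marrow stromal markers, set beside the label of MSC, was 2252 to 4261 in PSC, 6887 to 13535 in PP1, 6253 to 17074 in PP2 and 7073 to 15343 in MSC. In these bulk samples fewer cells of a type and less RNA per cell cannot be told apart.

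The 6 transcripts did not move as one across the sorts. Cd200 was most abundant in PSC and then MSC, while Pdpn was most abundant in PP1 and PP2. Mcam was highest in MSC, and Nt5e differed little between groups. Thy1 was highest in PP1 and, with a wide spread, in PP2, and Enpep was lowest in PSC. Differences were tested with limma on log2(normalized count + 1), fitted over all genes and all 16 libraries, with a Benjamini-Hochberg adjusted p under 0.05 as the threshold. Cd200 is left out of the counts that follow, since the published gate divided the sorts by its protein, and the other 5 members are counted. Thy1 and Enpep are among these 5 though the gate used their proteins too. Counts and medians over the 5 thus rest in part on genes of the sort. In PSC against PP1, 4 of the 5 passed, all lower in PSC, against 31.2% of all genes tested. In PSC against PP2, 1 of 5 passed (32.8% of all genes), and in PSC against MSC 1 of 5 (26.3%). In PP1 against PP2, 0 of 5 passed with limma (0.834% of all genes, 0.478% higher and 0.355% lower), while 1, Mcam, had an unadjusted p under 0.05 0 passed with edgeR and 1, Mcam, with DESeq2. In PP1 against MSC, 3 of 5 passed (21.4%), and in PP2 against MSC 2 of 5 (24.0%). Some of these calls belong to Thy1 or Enpep, and among the 3 members outside the gate 2, 1, 1, 0, 2 and 2 passed in the same 6 comparisons. The libraries of the first and second group did not overlap for 4 of the 5 in PSC against PP1 (28.9% of all genes), 1 in PSC against PP2 (28.5%) and 2 in PSC against MSC (38.7%). They did not overlap for 1 in PP1 against PP2 (4.74%), 3 in PP1 against MSC (30.1%) and 2 in PP2 against MSC (30.5%). With 5 members, such shares are coarse. The median log2 difference over the 5 was -1.77 in PSC against PP1, -1.37 in PSC against PP2 and -0.33 in PSC against MSC. Over all genes tested these medians were 0.04, 0.08 and -0.18. Each median over the 5 is the value of 1 gene. In PSC against PP1 and against MSC it was that of Pdpn. In PSC against PP2 it was that of Thy1, whose libraries overlapped (limma adjusted p = 0.414). In that comparison the 3 members outside the gate had -2.01 (Pdpn), -0.28 (Mcam) and -0.06 (Nt5e). Of all genes tested, 16.1% were higher and 15.1% lower in PSC than in PP1, 17.6% higher and 15.2% lower than in PP2, and 12.1% higher and 14.2% lower than in MSC. The counts and medians of the gene lists below stand beside these values.

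**Figure D1:**
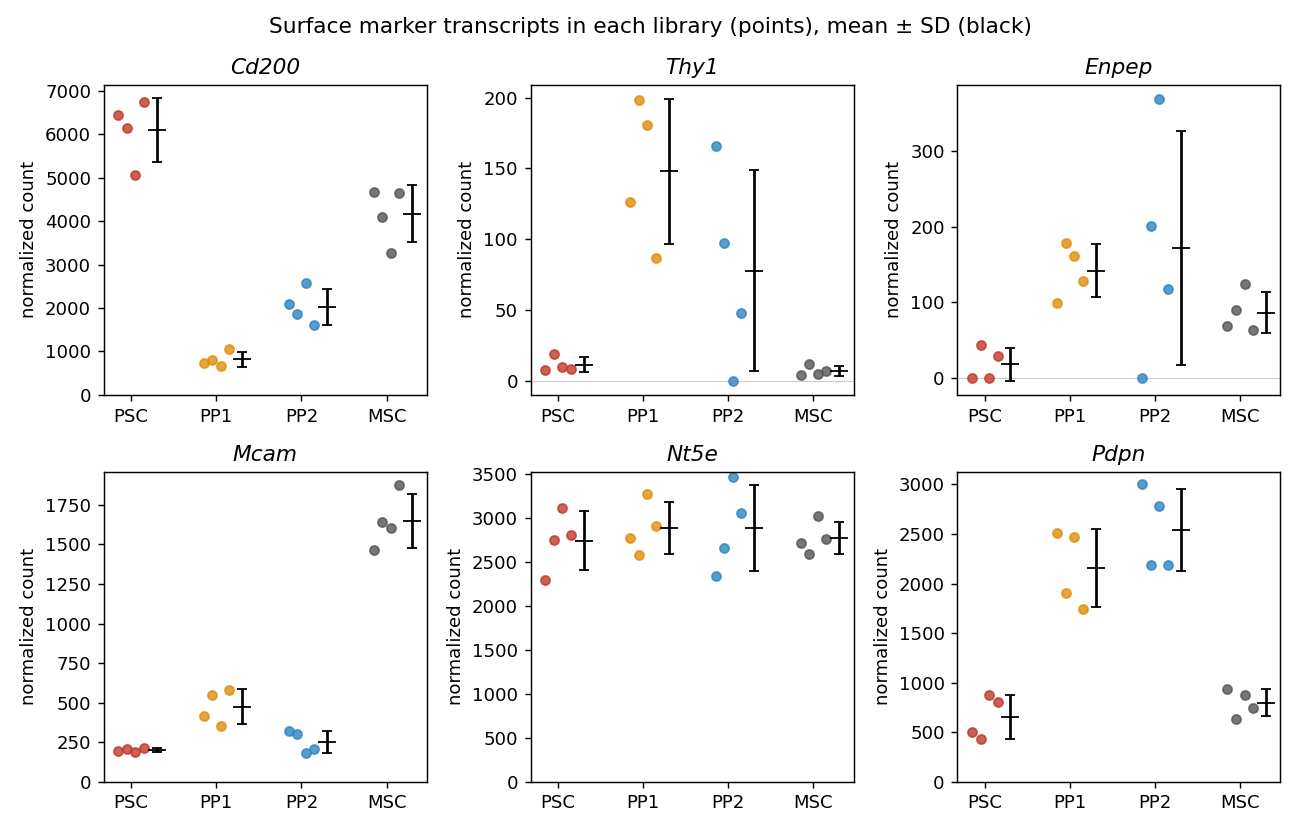
Normalized counts (vertical axes, 1 scale per gene) of the 6 members in each library of PSC, PP1, PP2 and MSC (points), with mean ± SD beside them (black, n = 4). Cd200 is highest in PSC, Pdpn in PP1 and PP2 and Mcam in MSC, while Nt5e lies between 2299 and 3470.3 in all 16 libraries.

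**Figure D2:**
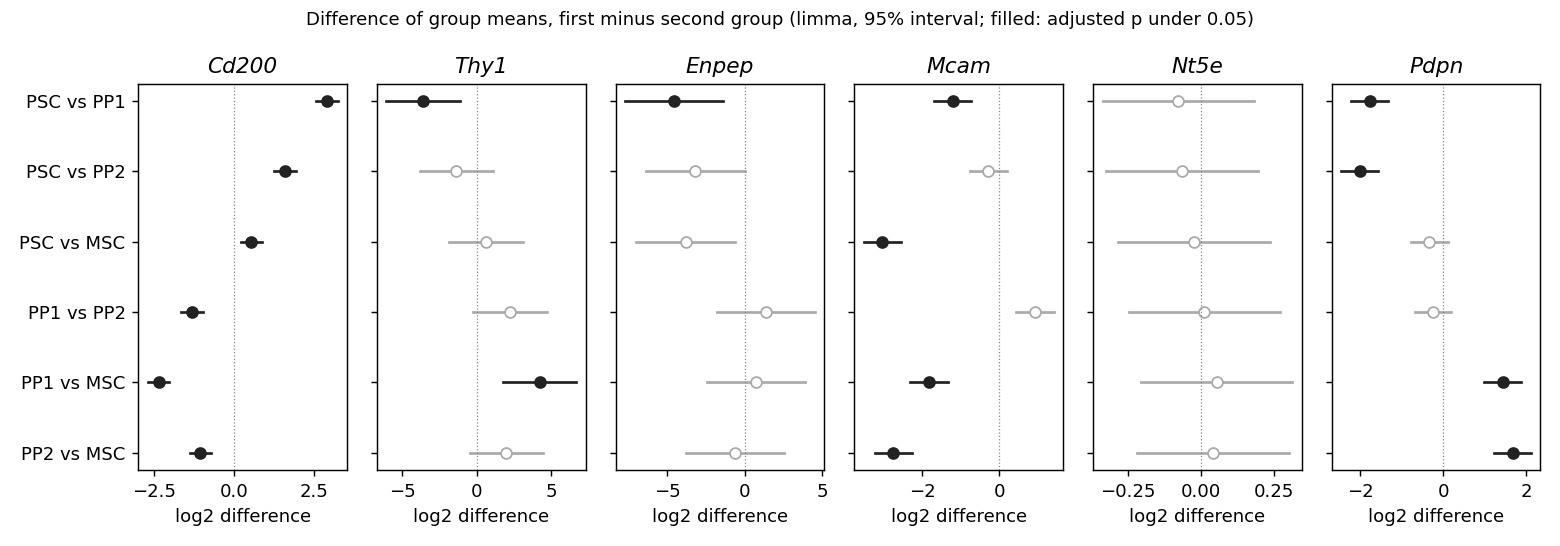
Log2 difference of group means, first minus second group (horizontal axes, 1 scale per gene), in the 6 comparisons (rows), with 95% intervals. Filled points passed an adjusted p of 0.05; all 6 intervals of Nt5e include 0, and those of Pdpn exclude it where PP1 or PP2 is set against PSC or MSC. The points of Cd200, a gene of the sort itself, are a description.

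Levels of different genes were compared after division by the exon length of each gene in kb. On this length-scaled level Cd200 led in PSC at 1836 ± 220.4 per kb, followed by Pdpn at 359 ± 120.3, Nt5e at 319 ± 39, Mcam at 60.2 ± 3.46, Enpep at 3.84 ± 4.6 and Thy1 at 3.77 ± 1.77 (SD, n = 4). In PP1, Pdpn led at 1188 ± 217 per kb, with Nt5e at 336 ± 33.9 and Cd200 at 247 ± 52. In PP2, Pdpn stood at 1398 ± 229 per kb and Cd200 at 611 ± 123. In MSC, Cd200 stood at 1258 ± 197 per kb, Mcam at 492 ± 50.8 and Pdpn at 438 ± 74.8. The member with the highest length-scaled level was thus Cd200 in PSC and MSC and Pdpn in PP1 and PP2. Thy1 and Enpep averaged at most 49.4 and 36.5 per kb in any group, and stood lowest of the 6 in each.

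**Figure D3:**
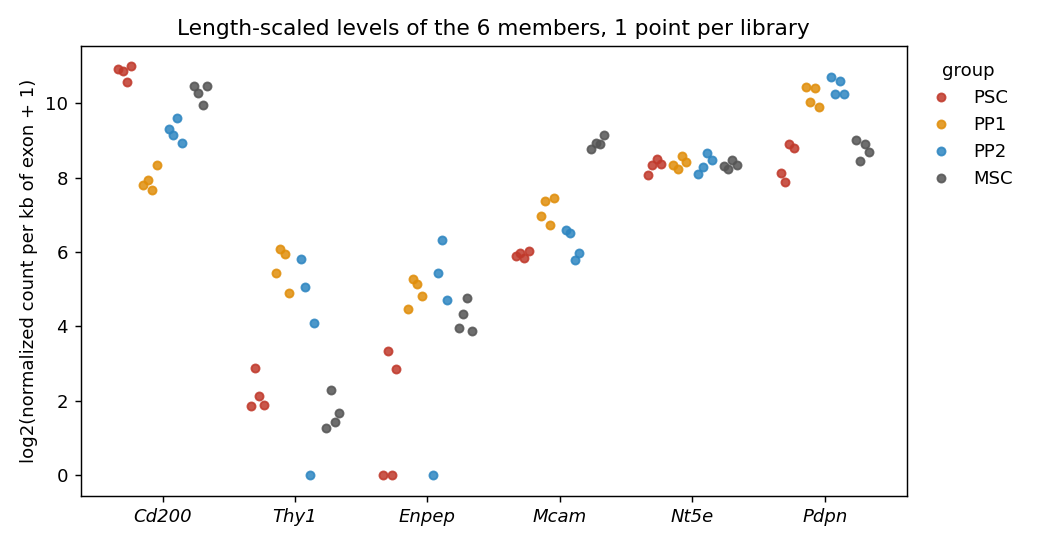
Log2(normalized count per kb of exon + 1) (vertical axis) of the 6 members, 1 point per library, coloured by group. Cd200 is the highest member in PSC and MSC and Pdpn in PP1 and PP2, and the points at 0 are libraries with no read of Thy1 or Enpep.

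Cd200 followed the published gate. Its normalized counts were 6436, 6145, 5064 and 6748 in PSC, 733, 807, 671 and 1065 in PP1, 2084, 1865, 2570.2 and 1603 in PP2, and 4665, 4107, 3278 and 4656 in MSC. Within each pair of groups the libraries did not overlap, and the order from high to low was PSC, MSC, PP2 and PP1. PP1, a sort described as negative for CD200 protein, still held 605 to 776 reads of Cd200 per library. Because the sort chose cells by this protein, the values are a description without a test, also against MSC, where the PSC arm was chosen by the same protein. Mean normalized counts were 6098 ± 732 in PSC, 819 ± 173 in PP1 and 2031 ± 410.0 in PP2, against 4177 ± 654 in MSC (SD, n = 4 each).

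The receptors of CD200 had few reads, while Dok1 and Rasa1 of the same list did not. Of 8 genes for CD200 receptors and their signalling, 6 were tested. In PSC 2 were higher and 0 lower than in PP1 (Cd200r3 and Inpp5d). In PSC 2 were higher and 0 lower than in PP2 (Cd200r3 and Cd200r1). Of the 6 genes tested, 33.3%, 33.3% and 0% were higher and 0%, 0% and 0% lower in PSC, in the order PP1, PP2 and MSC. The median log2 difference of the list was 1.43 and 1.09 in these comparisons, beside 0.04 and 0.08 over all genes. Cd200r1, the inhibitory receptor itself, ranged over 3.48 to 41.3 normalized counts in PSC, 0 to 21 in PP1 and 11 to 18.8 in MSC, with no read in PP2. Cd200r3, a related receptor, ranged over 24.6 to 60.3 in PSC, 0 to 15.8 in PP1 and 8.09 to 18 in MSC, also with no read in PP2. Inpp5d, a phosphatase of blood cells that damps receptor signals, ranged over 10 to 87.5 in PSC, 0 to 0.986 in PP1, 0 to 64.8 in PP2 and 10.3 to 27.9 in MSC. Dok1 and Rasa1, an adaptor and a Ras regulator below the receptor, are named here after their values were seen, since their levels were not low. Dok1 averaged normalized counts of 2634 ± 156 in PSC, 2494 ± 515 in PP1 and 2626 ± 251 in PP2, against 2278 ± 221 in MSC (SD, n = 4 each). Rasa1 averaged 534 ± 215 in PSC, 625 ± 151 in PP1 and 554 ± 163 in PP2, against 574 ± 51.5 in MSC. Neither passed in any of the 6 comparisons. Dok2, a related adaptor, was low, at 0 to 36.2 in PSC, 0 to 53 in PP1, 0 to 79.5 in PP2 and 9.58 to 18 in MSC. The receptors and Inpp5d are genes of leukocytes, and 5 leukocyte markers summed to 79 to 408 in PSC, 235 to 1310.0 in PP1, 1.33 to 279 in PP2 and 193 to 276 in MSC, while Ptprc, which defines leukocytes, had no read in PSC and PP2 and at most 67 normalized counts in PP1 and 3.68 in MSC. The part of leukocytes in the receptor counts was not tested.

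Thy1 was highest in PP1, and its PP2 libraries were scattered. Normalized counts were 7.81, 19.1, 10.1 and 8.13 in PSC, 126, 199, 180.4 and 86.8 in PP1, 166, 97.4, 0 and 47.6 in PP2, and 4.29, 11.6, 5.14 and 6.62 in MSC. All PP1 libraries lay above all PSC and MSC libraries, while PP2 spanned nearly the whole range. PP2 replicate 3, the library with the fewest genes, had no read of Thy1, and 3 reads would be 3.98 normalized counts there. Thy1 was 19-fold higher in PP1 than in MSC (log2 difference 4.25 ± 1.18 SE, limma adjusted p = 0.0142). It was 12.3-fold lower in PSC than in PP1 (-3.62 ± 1.18 SE, limma adjusted p = 0.0248), a call lost without PSC replicate 1, PSC replicate 4, PP1 replicate 2 or PP1 replicate 3 (adjusted p = 0.0549, 0.0549, 0.0554 and 0.0549). In PP2 against MSC it did not pass (log2 difference 2.00 ± 1.18 SE, adjusted p = 0.233), but without PP2 replicate 3 the difference was 3.63 (limma adjusted p = 0.00155), and without PP2 replicates 1 and 3 it was 3.21 (0.0104). On recovered reads of all libraries it was 3.46 with edgeR (adjusted p = 0.0275) and 3.48 with DESeq2 (0.000915). DESeq2 is given here and below as an alternative that made more false calls than limma and edgeR on simulated data, scored in PSC against MSC only. In PSC against PP2 the difference was -1.37 ± 1.18 SE (adjusted p = 0.414), -3.00 without PP2 replicate 3 (0.0042) and -2.58 without PP2 replicates 1 and 3 (0.0248). With DESeq2 it was -2.78 (adjusted p = 0.00711), while edgeR did not bring it past the threshold (0.0501). PSC and MSC did not pass against each other (adjusted p = 0.753), nor did PP1 and PP2 (0.428). Cd3e, which defines T cells, had no read in any library.

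The listed partners of THY1 are integrins, a syndecan and kinases. Of 13 partner genes in the expression table, 12 were tested. In PSC 1 was higher and 6 lower than in PP1, 1 higher and 5 lower than in PP2, and 0 higher and 7 lower than in MSC. Of the 12 genes tested, 8.33%, 8.33% and 0% were higher and 50%, 41.7% and 58.3% lower in PSC, in the order PP1, PP2 and MSC. The list medians were -0.67, -0.11 and -0.43 on the log2 scale. Fyn, a Src-family kinase that acts below THY1, averaged 449.7 ± 38.8 in PSC, 708 ± 193 in PP1 and 839 ± 119.7 in PP2, against 1051 ± 17.3 in MSC. It was lower in PSC by 1.54-fold, 1.85-fold and 2.34-fold against PP1, PP2 and MSC (limma adjusted p = 0.012, 0.000664 and 6.28e-05). Itga5, the fibronectin receptor subunit, was also lower in PSC, by 2.36-fold, 2.28-fold and 1.76-fold, as was Itgb1, the beta subunit it pairs with, by 1.4-fold, 1.46-fold and 1.21-fold. Sdc4, a heparan sulfate proteoglycan that binds THY1, was higher in PSC by 1.74-fold against PP1 and 2.15-fold against PP2 (limma adjusted p = 3.56e-05 and 6.57e-07), and PSC and MSC did not pass (0.392).

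Enpep was lowest in PSC. Its normalized counts were 0, 43.2, 0 and 29 in PSC, 99.3, 179, 161 and 129 in PP1, 0, 201, 369 and 118 in PP2, and 68.7, 89.6, 124 and 64 in MSC. All PP1 and MSC libraries lay above all PSC libraries, while PP2 held a library at 0 and the highest library. The 3 libraries with no read were PSC replicates 1 and 3, which had the fewest genes of the PSC libraries (13045 and 12986), and PP2 replicate 1. There 3 reads would be 3.35, 3.02 and 3.3 normalized counts, and the fitted differences of Enpep depend on these zeros and on the pseudocount. Enpep was lower in PSC than in PP1 (log2 difference -4.53 ± 1.51 SE, limma adjusted p = 0.028). This call was lost with edgeR on recovered reads (adjusted p = 0.0823), without PSC replicate 1 or 3 (0.0966 and 0.092) and without PP1 replicate 2, 3 or 4 (0.0582, 0.0576 and 0.0516). In PSC against PP2 the log2 difference was -3.18 ± 1.51 SE (adjusted p = 0.119). Without PP2 replicate 1 it was -5.10 (limma adjusted p = 0.00189), and without PP2 replicates 1 and 3 it was -4.68 (0.0114). It also passed with a pseudocount of 8 (limma adjusted p = 0.0457) and with DESeq2 (0.0137), but not with edgeR (0.0572). In PSC against MSC the difference was -3.81 ± 1.51 SE (adjusted p = 0.0715), which passed without PP2 replicate 1 (0.0106), a library that enters only through the shared spread, without PSC replicate 2 (0.0383) and with only the 8 libraries compared (0.029). PP1, PP2 and MSC did not pass against each other (adjusted p = 0.744, 0.781 and 0.799), with wide intervals of the fold, such as 0.184 to 14.8 for PP1 over MSC.

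The genes of angiotensin peptide handling are the setting of ENPEP as an enzyme. Of 16 listed genes 14 were tested, and in PSC 3 were higher and 6 lower than in PP1, 3 higher and 7 lower than in PP2, and 1 higher and 5 lower than in MSC. Of the 14 genes tested, 21.4%, 21.4% and 7.14% were higher and 42.9%, 50% and 35.7% lower in PSC, in the order PP1, PP2 and MSC. The shares higher were thus near or below those of all genes (16.1%, 17.6% and 12.1%), and the shares lower above them (15.1%, 15.2% and 14.2%). The list medians were -0.83, -0.84 and -0.58 on the log2 scale. Agtr2, the type 2 angiotensin receptor, had normalized counts of 1449.6, 1098, 2826 and 1983 in PSC, 10035, 8418, 9084 and 8820.5 in PP1, 13268, 10257, 10098 and 10332 in PP2, and 1863, 1395, 1971 and 1792 in MSC. Its PP1 and PP2 libraries lay above all PSC and MSC libraries. Agtr2 was 5.25-fold lower in PSC than in PP1 and 6.31-fold lower than in PP2 (limma adjusted p = 2.45e-08 and 5.37e-09), and PSC and MSC did not pass (log2 difference -0.01 ± 0.20 SE, adjusted p = 0.979). Anpep, aminopeptidase N, which trims angiotensin III, was 7.54-fold lower in PSC than in PP1 and 9.9-fold lower than in PP2. Mme, neprilysin, was lower in PSC by 2.12-fold, 2.16-fold and 2.86-fold against PP1, PP2 and MSC. Agt, the angiotensinogen precursor, averaged 1830.5 ± 378 in PSC, 1605 ± 71 in PP1 and 1261 ± 337 in PP2, against 3167 ± 515 in MSC, and PSC were 1.74-fold lower than MSC (limma adjusted p = 0.00204).

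Mcam set MSC apart from all GFP-positive sorts. Its normalized counts were 195, 207, 189 and 215 in PSC, 418, 551, 349 and 581 in PP1, 318, 300.4, 180.3 and 208 in PP2, and 1465, 1644, 1607 and 1875 in MSC. Every MSC library lay above every other library, and the PSC libraries were close together. Against MSC, Mcam was 8.12-fold lower in PSC (log2 difference -3.02 ± 0.23 SE, limma adjusted p = 6.5e-08), 3.52-fold lower in PP1 (-1.82 ± 0.23 SE, 1.24e-05) and 6.69-fold lower in PP2 (-2.74 ± 0.23 SE, 8.8e-08). It was 2.3-fold lower in PSC than in PP1 (limma adjusted p = 0.000452), with no overlap. PP1 libraries also lay above PP2 libraries, but the difference did not pass (log2 difference 0.92 ± 0.23 SE, adjusted p = 0.0633). It passed without PP1 replicate 3 (limma adjusted p = 0.0402) and without PP2 replicate 1 (0.0424). On recovered reads it did not pass with edgeR (adjusted p = 0.0533) and passed with DESeq2 (0.00574). DESeq2 made more false calls on simulated data, which did not cover PP1 against PP2. PSC and PP2 overlapped and did not pass (fold 0.824, 95% interval 0.59 to 1.15, adjusted p = 0.39). The order of means was MSC, PP1, PP2 and PSC, and PP1 and PP2, and PP2 and PSC, were neighbours that did not differ past the threshold.

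Markers of other cells that carry MCAM were set beside these values. Of 9 pericyte and smooth muscle markers, 8 were lower in PSC than in MSC and none higher. In PP1 1 was higher and 1 lower than in MSC, and in PP2 2 were higher and 4 lower than in MSC. Their summed level was 18017 to 22465 in PSC, 22418 to 30797 in PP1, 20123 to 22496 in PP2 and 39420.2 to 49779 in MSC. Cspg4 gave most of this sum, so it describes mainly that gene. Cspg4 averaged 16601 ± 1394 in PSC, 15252 ± 3134 in PP1 and 11509 ± 1124 in PP2, against 26773 ± 4389 in MSC. Myh11, smooth muscle myosin, had normalized counts of 123, 44.3, 43.2 and 0 in PSC, 302, 361, 180.4 and 379.6 in PP1, 278, 0, 0 and 66.9 in PP2, and 1236, 1358, 1434 and 981 in MSC. Rgs5, a pericyte gene, was instead 3.73-fold higher in PP2 than in MSC (limma adjusted p = 0.0206), at 1245 to 3241 in PP2 against 405 to 569.9 in MSC. All 4 Schwann cell markers were lower in each of PSC, PP1 and PP2 than in MSC, and their sum was 260.0 to 1449 in PSC, 74.9 to 2404 in PP1, 43.7 to 219 in PP2 and 10794 to 17011 in MSC. Foxd3, one of them, had no read in PP1 and PP2 libraries. The 7 endothelial markers summed to 164 to 792 in PSC, 184 to 1205 in PP1, 98.1 to 447 in PP2 and 681 to 1059.8 in MSC, and Pecam1 had no read in PP2 replicates 1, 2 and 3. The part of these cells in the Mcam difference was not tested.

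**Figure D4:**
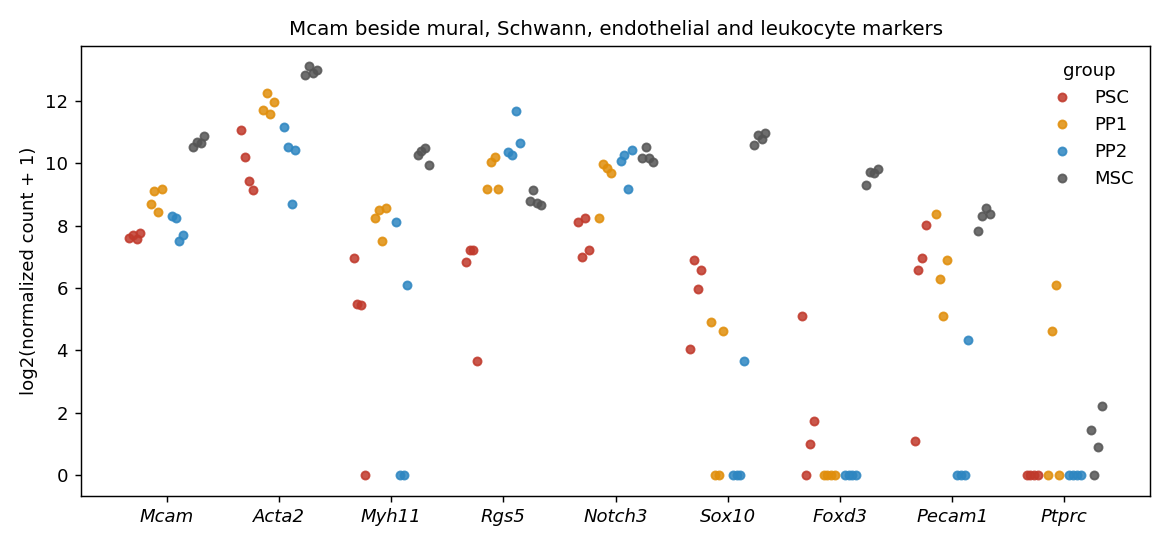
Log2(normalized count + 1) (vertical axis) of Mcam and of markers of mural cells (Acta2, Myh11, Rgs5, Notch3), Schwann cells (Sox10, Foxd3), endothelium (Pecam1) and leukocytes (Ptprc), 1 point per library, coloured by group. The MSC libraries lie above all others for Mcam, Acta2, Myh11, Sox10 and Foxd3, but not for Rgs5, where the PP2 libraries are highest.

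The ligands and partners of MCAM had another pattern. Of 17 genes, all tested, in PSC 2 were higher and 12 lower than in PP1, 3 higher and 11 lower than in PP2, and 2 higher and 9 lower than in MSC, with list medians of -1.42, -1.59 and -1.01 on the log2 scale. Of the 17 genes tested, 11.8%, 17.6% and 11.8% were higher and 70.6%, 64.7% and 52.9% lower in PSC, in the order PP1, PP2 and MSC. In PP2 7 were higher and 3 lower than in MSC, where 9.28% of all genes were higher and 14.7% lower, while Mcam itself was lower in PP2. Lamc1, the gamma chain of the laminins that MCAM binds, averaged 1587 ± 289 in PSC, 7706 ± 943 in PP1 and 11344 ± 1469 in PP2, against 6301 ± 429.5 in MSC. It was lower in PSC by 4.88-fold, 7.18-fold and 4.01-fold against PP1, PP2 and MSC (limma adjusted p = 1.25e-10, 1.41e-11 and 9.44e-09). Ntn1, netrin-1, an MCAM ligand, was lower in PSC by 7.5-fold, 5.84-fold and 4.19-fold against the same groups. Lgals3, galectin-3, was higher in PSC by 4.33-fold, 5.3-fold and 3.35-fold. Lgals1, galectin-1, was 4.75-fold lower in PSC than in PP1 and 3.83-fold lower than in PP2, and PSC and MSC did not pass (adjusted p = 0.961).

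The stretch between Thy1 and Mcam holds 9 annotated genes, of which 4 were found in the expression table. Rnf26, a ubiquitin ligase gene, averaged 2142 ± 176 in PSC, 1582 ± 251 in PP1 and 1789 ± 193 in PP2, against 1851 ± 119.8 in MSC. Usp2, a deubiquitinase gene, had at most 171 normalized counts in any library, Mfrp at most 35.5, and C1qtnf5 had no read. The highest group mean of Rnf26 was that of PSC, where both Thy1 and Mcam were low.

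Nt5e did not separate the sorts. Its normalized counts were 2299, 2755, 3110.4 and 2812 in PSC, 2778, 2585, 3276 and 2914 in PP1, 2345, 2656, 3470.3 and 3062 in PP2, and 2721, 2597, 3024 and 2760.5 in MSC. All 4 groups overlapped each other. Means were 2744 ± 335 in PSC, 2888 ± 292 in PP1 and 2883 ± 489 in PP2, against 2776 ± 179 in MSC (SD, n = 4 each). None of the 6 comparisons passed (limma adjusted p = 0.687 for PSC against PP1, 0.739 for PSC against PP2, 0.923 for PSC against MSC, 0.992 for PP1 against PP2, 0.8 for PP1 against MSC and 0.842 for PP2 against MSC). A missed threshold does not show equal levels, but the intervals bound the size of a difference. The 95% interval of the fold was 0.792 to 1.14 for PSC over PP1, 0.799 to 1.15 for PSC over PP2 and 0.822 to 1.18 for PSC over MSC. It was 0.842 to 1.21 for PP1 over PP2, 0.867 to 1.24 for PP1 over MSC and 0.86 to 1.23 for PP2 over MSC.

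Other genes of extracellular ATP and adenosine handling did differ. Of 29 listed genes 27 were tested. In PSC 7 were higher and 6 lower than in PP1, 9 higher and 8 lower than in PP2, and 5 higher and 7 lower than in MSC, with list medians of 0.19, -0.51 and -0.72 on the log2 scale. Of the 27 genes tested, 25.9%, 33.3% and 18.5% were higher and 22.2%, 29.6% and 25.9% lower in PSC, in the order PP1, PP2 and MSC. Entpd2, an enzyme that takes phosphate from extracellular ATP, had normalized counts of 77, 34.2, 73.4 and 108 in PSC, 1644, 1448, 1301 and 1535 in PP1, 3951, 2669, 1823 and 2770.4 in PP2, and 410.2, 473, 290.2 and 631 in MSC. Every PSC library lay below every other library, and every PP2 library above every PP1 library. Entpd2 was lower in PSC by 21.5-fold, 39.3-fold and 6.34-fold against PP1, PP2 and MSC (limma adjusted p = 1.98e-09, 1.62e-10 and 5.85e-06), while PP1 and PP2 did not pass against each other (0.212). Entpd1 (CD39), which makes the AMP that NT5E uses and was named after its values were seen, had normalized counts of 12.3, 1.01, 102 and 111 in PSC, 271, 66.5, 394 and 252 in PP1, 1166, 413, 713 and 348 in PP2, and 147, 173, 254 and 154 in MSC. It was lower in PSC than in PP1, PP2 and MSC (limma adjusted p = 0.0153, 0.000731 and 0.0269).

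Single genes of the list moved in both directions. Alpl, tissue-nonspecific alkaline phosphatase, which can also make adenosine from AMP, was higher in PSC by 6.2-fold against PP1 and 6.49-fold against PP2, and PSC and MSC did not pass (log2 difference 0.19 ± 0.13 SE, adjusted p = 0.333). Panx3, a channel that lets ATP out of the cell, was higher in PSC by 10.1-fold, 25.7-fold and 3.99-fold against PP1, PP2 and MSC. Adk, the kinase that returns adenosine to AMP inside the cell, was higher by 3.49-fold, 3.35-fold and 2.79-fold. Other listed genes of release and transport, named after their values were seen, had their lowest mean in PSC. Panx1, a relative of Panx3, averaged normalized counts of 113 ± 73.1 in PSC, 226 ± 91.4 in PP1 and 301 ± 122 in PP2, against 184 ± 25.4 in MSC. It was 3.07-fold lower in PSC than in PP2 (limma adjusted p = 0.0219), and did not pass against PP1 or MSC (0.0815 and 0.172). Ank, which takes part in the export of pyrophosphate and ATP, averaged 2882 ± 647 in PSC, 4134 ± 962 in PP1 and 3831 ± 933 in PP2, against 4679 ± 511 in MSC. It differed from MSC, with PSC 1.65-fold lower (0.0121), and did not pass against PP1 or PP2 (0.0598 and 0.142). Slc29a1, a nucleoside transporter, averaged 16338 ± 1625 in PSC, 18558 ± 2349 in PP1 and 24391 ± 1513 in PP2, against 17819.9 ± 1867 in MSC. It was 1.5-fold lower in PSC than in PP2 (0.000324), and did not pass against PP1 or MSC (0.228 and 0.447). Alpl and Panx3 are also genes of bone and cartilage cells. Of 7 chondrocyte markers, 7 were higher in PSC than in PP1, 6 than in PP2 and 2 than in MSC, where 1, Col2a1, was lower. Their sums, to which Col2a1 gave most, were 2978173 to 5150826 in PSC, 1263781 to 1593936 in PP1, 1679584 to 2215981 in PP2 and 5842679 to 8729746 in MSC. Of 4 hypertrophic chondrocyte markers, a list that holds Panx3 itself, 3 were higher and 0 lower in PSC than in PP1, 3 higher and 0 lower than in PP2, and 2 higher and 1 lower than in MSC, with sums of 141262 to 210957 in PSC, 16987 to 26500.3 in PP1, 5986 to 26036 in PP2 and 71959 to 109059 in MSC. The order of these sums, PSC above MSC and both above PP1 and PP2, was that of Panx3. Of 6 osteoblast markers, a list that holds Alpl, 4 were higher and 1 lower in PSC than in PP1, 5 higher and 1 lower than in PP2, and against MSC the limma adjusted p lay between 0.0826 (Runx2) and 0.761 (Bglap). Their sums were 539994 to 1142039.5 in PSC, 1474530.1 to 2410005 in PP1, 1328473 to 1945383 in PP2 and 538907 to 1253696 in MSC. Alpl was high in both PSC and MSC, while the osteoblast sum, to which Col1a1 gave most, was highest in PP1 and PP2. Of the same list, Sp7, Ibsp and Runx2 also had higher means in PSC and MSC than in PP1 and PP2. Bglap, like Col1a1, had its highest mean in PP1. The part of such cells in the differences of Alpl and Panx3 was not tested.

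**Figure D5:**
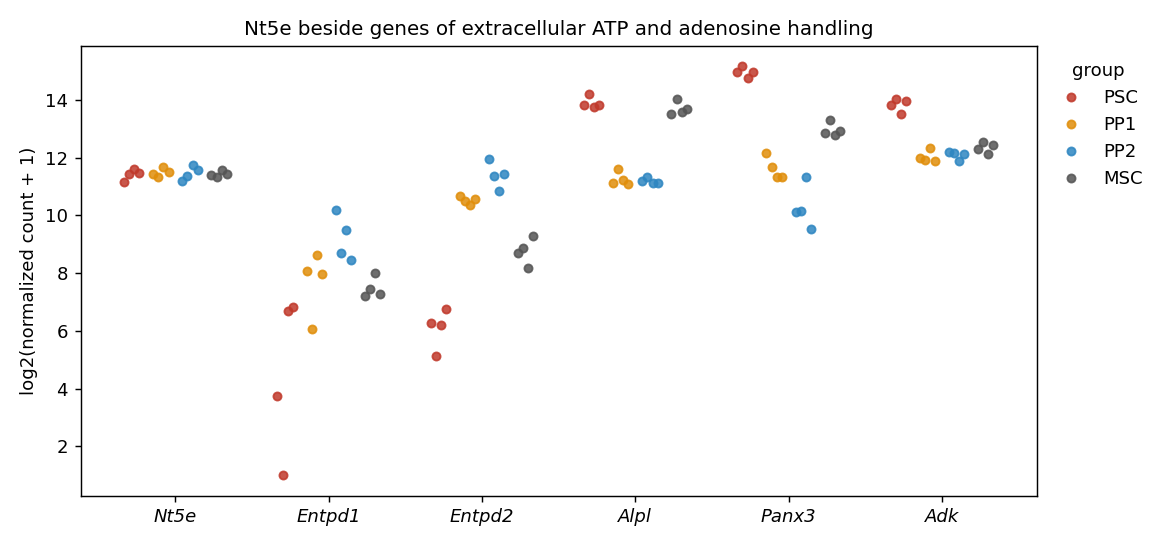
Log2(normalized count + 1) (vertical axis) of Nt5e, Entpd1, Entpd2, Alpl, Panx3 and Adk, 1 point per library, coloured by group. The groups overlap for Nt5e, the PSC libraries are lowest for Entpd2, and they are highest for Panx3 and Adk.

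Pdpn set both progenitor sorts apart from both stem cell sorts. Its normalized counts were 504, 429, 871 and 807 in PSC, 2515, 1903, 2473 and 1741 in PP1, 3000.5, 2187, 2786 and 2189.6 in PP2, and 937, 632, 872 and 742 in MSC. Every PP1 and PP2 library lay above every PSC and MSC library, while PSC overlapped MSC and PP1 overlapped PP2. Pdpn was 3.41-fold lower in PSC than in PP1 (log2 difference -1.77 ± 0.21 SE, limma adjusted p = 2.48e-06) and 4.02-fold lower than in PP2 (-2.01 ± 0.21 SE, 4.78e-07). It was 2.7-fold higher in PP1 than in MSC (1.44 ± 0.21 SE, limma adjusted p = 7.21e-05) and 3.19-fold higher in PP2 than in MSC (1.68 ± 0.21 SE, 1.05e-05). PSC and MSC did not pass (fold 0.794, 95% interval 0.584 to 1.08, adjusted p = 0.277), nor did PP1 and PP2 (fold 0.847, 95% interval 0.623 to 1.15, adjusted p = 0.667). The order of means was PP2, PP1, MSC and PSC, and of the neighbours in it PP1 and MSC differed past the threshold.

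Markers of 3 kinds of cell known to carry podoplanin were set beside it. All 6 fibroblast markers were lower in PSC than in PP1 and than in PP2, and all 6 were higher in PP1 and in PP2 than in MSC. Their sum was 27737 to 43935 in PSC, 101249 to 146274 in PP1, 103701 to 139439 in PP2 and 40217 to 50297 in MSC, high in the same sorts as Pdpn. The 5 osteocyte markers were low where Pdpn was high, with sums of 2994 to 3864 in PSC, 732 to 1476 in PP1, 311 to 664 in PP2 and 3424 to 5207 in MSC. The 3 lymphatic endothelial markers summed to at most 69.4 in PSC, 124 in PP1, and 97.8 in PP2, against at most 53.1 in MSC. The part of any of these cells in the Pdpn difference was not tested.

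Of 13 podoplanin partner genes 12 were tested. In PSC 3 were higher and 6 lower than in PP1, 3 higher and 5 lower than in PP2, and 2 higher and 2 lower than in MSC, with list medians of -0.36, -0.20 and 0.04 on the log2 scale. Of the 12 genes tested, 25%, 25% and 16.7% were higher and 50%, 41.7% and 16.7% lower in PSC, in the order PP1, PP2 and MSC. In PP1 5 were higher and 1 lower than in MSC, where 8.88% of all genes were higher and 12.6% lower. Clec1b, the platelet receptor of podoplanin, had no read in any library. Cd44, the hyaluronan receptor that binds podoplanin, had normalized counts of 328, 993, 477 and 1064 in PSC, 2223, 2292, 2584 and 2453 in PP1, 2835, 2412, 2253 and 2885 in PP2, and 561, 636, 550.5 and 503 in MSC. As with Pdpn, its PP1 and PP2 libraries lay above all PSC and MSC libraries. Cd44 was 3.73-fold lower in PSC than in PP1 and 4.04-fold lower than in PP2 (limma adjusted p = 1.42e-05 and 6.8e-06). Mmp14, a membrane-bound matrix protease, was lower in PSC by 3.64-fold, 2.82-fold and 2.6-fold against PP1, PP2 and MSC. Rhoa, a switch of the actin skeleton that acts below podoplanin, was higher in PSC by 1.43-fold, 1.58-fold and 1.81-fold.

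Other surface markers of skeletal stem and stromal cells gave a wider setting. Of 24 listed genes 23 were tested. The list holds Eng, whose product the published gate used. Eng is counted below as lower in PSC than in PP1 and than in PP2, which is no finding. In PSC 3 were higher and 13 lower than in PP1, 5 higher and 13 lower than in PP2, and 3 higher and 13 lower than in MSC, with list medians of -0.87, -0.68 and -0.40, beside 0.04, 0.08 and -0.18 over all genes. Of the 23 genes tested, 13%, 21.7% and 13% were higher and 56.5%, 56.5% and 56.5% lower in PSC, in the order PP1, PP2 and MSC. Cd24a, a lipid-anchored sialoglycoprotein, was higher in PSC by 4.97-fold, 7.56-fold and 3.24-fold against PP1, PP2 and MSC. Cd34, a sialomucin of progenitor and endothelial cells, was lower in PSC by 30-fold, 34.6-fold and 1.86-fold. Cd248, endosialin of stromal cells, was 8.19-fold lower in PSC than in PP1 and 8.41-fold lower than in PP2. Cd164, the remaining marker of the human definition and named for that reason after its values were seen, averaged 15335 ± 971 in PSC, 10181 ± 416 in PP1 and 10175 ± 698 in PP2, against 10469 ± 408 in MSC. It was higher in PSC by 1.5-fold, 1.51-fold and 1.46-fold against PP1, PP2 and MSC (limma adjusted p = 9.28e-06, 8.22e-06 and 5.5e-05). Of the 4 genes of the human definition, PSC had the highest group mean of Cd164 and the lowest of Mcam, and also the lowest of Nt5e and of Pdpn, where the Mcam difference did not pass against PP2, that of Nt5e passed in no comparison and that of Pdpn did not pass against MSC.

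For each member the genes with the most similar pattern were sought by Pearson correlation of log2(normalized count + 1) over the 16 libraries, among 10100 or 10101 genes with a mean of at least 100. Libraries of a group share their sort, so for members whose groups lie far apart these values, given without a p, describe mainly the order of groups. The group means of Nt5e differed little, so its values describe mainly differences between libraries within groups. Among the genes closest to Pdpn were Mfap2 (r = 0.98) and Agtr2 (0.98). Cd200 was followed by Slc38a3 (r = 0.97), Frzb (0.96) and Setd8 (0.95). Mcam was followed by Serpine2 (r = 0.95), Prx (0.93) and Arid1a (0.93). Prx, a protein of myelinating Schwann cells, averaged 137 ± 18 in PSC, 208 ± 79.4 in PP1 and 157 ± 92.9 in PP2, against 1137 ± 148 in MSC. Thy1 was followed by Hbp1 (r = 0.92), Abracl (0.91) and St7l (0.89). Nt5e was followed by Ltn1 (r = 0.89), Tom1l2 (0.88) and Stau1 (0.82), and Enpep by Gdf6 (r = 0.85), Fam65a (0.85) and Abca3 (0.84). Among the 15 pairs of members the correlation was lowest between Cd200 and Pdpn (r = -0.81) and highest between Thy1 and Pdpn (r = 0.51).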

How the data were processed

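RNA of 16 sorted samples, 4 per group, was sequenced. Per the labels, it was prepared with an RNeasy Plus Micro kit and a TruSeq RNA kit and read on a HiSeq4000. According to the submitters' processing notes, the mm10 build and the tools DESeq2 1.6.3, HTSeq 0.6.1, TopHat2 2.0.11, cutadapt and bcl2fastq 2.17 were used. No source used here gives the annotation, filters or strand setting. The deposited table holds signal values, in which each library's entries were whole multiples of 1 step within 1e-06, so that reads were recovered by division.

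Genes with at least 10 normalized counts in at least 4 libraries were tested with limma 3.58.1 (R 4.3.3) on log2(value + 1), with an intensity trend and a term for group. Tests were two-sided and adjusted by Benjamini-Hochberg over all genes of a comparison. Folds are on the log2(value + 1) scale, where the added 1 shrinks changes of low genes. Libraries with no read can instead enlarge a change or turn its sign. Enpep in PP1 against PP2 had a log2 difference of 1.35, with group means of 142 in PP1 and 172 in PP2. Limits from 3 reads cover counting error only. The tests were run on simulated data with known changes, where DESeq2 made more false calls than limma and edgeR. There, genes were changed in PSC only, fewer than most comparisons here called, with a spread estimated by edgeR. Calls were scored in PSC against MSC only, so the simulation does not give the share of false calls in the other comparisons. Alternatives were edgeR 4.0.16 and DESeq2 1.42.0 on recovered reads, other scaling, pseudocounts and filters, a replicate block, and fits without single libraries.

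The members, lists and alternatives were chosen with earlier results of these data known. Named genes were the members, Eng, Ctsk, the 3 genes most correlated with each member, the genes between Thy1 and Mcam and up to 4 genes per list with the smallest adjusted p; others are listed markers or are marked as chosen after their values were seen. One gene that this rule names is not reported here. GENCODE M21 held 21829 of 22559 gene identifiers. RefSeq promoters (GRCm38.p6) matched 5 of the 6 members.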

Additional observations from a re-analysis of the deposited data

How the results depend on the processing

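Of the 36 member comparisons, 28 kept their side of the threshold under every alternative that gave a value, up to 26. All comparisons of Nt5e and Pdpn were among these 28. No call changed direction, but differences that did not pass could change sign. That of Nt5e in PSC against PP1 ranged over -0.14 to 0.0054 on the log2 scale. Counts of members here include Cd200, whose protein the sort used and which passed in every comparison of the main fit. They also include Thy1 and Enpep, whose proteins the published gate used. Without Cd200 the main fit called 4 of 5 members in PSC against PP1, 1 in PSC against PP2 and 1 in PSC against MSC. It called 0 in PP1 against PP2, 3 in PP1 against MSC and 2 in PP2 against MSC. DESeq2 made more false calls than limma and edgeR on simulated data of PSC against MSC, the only comparison scored. Its higher counts are not read as firmer calls. Members that passed in PSC against PP2 were 4 with DESeq2 and 4 without PP2 replicates 1 and 3, beside 2. In PP1 against PP2 they were 2 with DESeq2 and 2 with the replicate block, beside 1, and all genes called were 410 with DESeq2, 227 with the replicate block and 53 with only the 8 libraries compared, beside 115. With 1 library left out, members that passed ranged over 3 to 5 in PSC against PP1, 2 to 3 in PSC against PP2, 1 to 3 in PSC against MSC, 1 to 2 in PP1 against PP2 and 3 to 4 in PP2 against MSC, and stayed at 4 in PP1 against MSC. The low count of 3 in PSC against PP1 came without PSC replicate 1, PP1 replicate 2 or PP1 replicate 3. Genes called in PP1 against PP2 ranged over 93 to 180, the highest without PP2 replicate 4. The cause was not tested. Libraries with the same number deviated together only weakly (correlations -0.018 to 0.149 over 24 pairs, 2 of them above 0.1). Yet 20 of 24 correlated best with their own number among the 4 libraries of the other group. The labels do not say that a number pairs libraries, so the main fit has no term for it. Its p-values ignore what libraries of the same number may share. The replicate block also brought Mcam in PP1 against PP2 (limma adjusted p = 0.0462) and Enpep in PSC against MSC (0.0395) past the threshold. Other scalings moved the median of all genes by at most 0.0427 on the log2 scale. Depth limits Thy1 and Enpep, with 37 to 689 reads over the 4 libraries of a group.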

Other observations

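Within each of the 4 groups Nt5e had its highest value in replicate 3, with a normalized count of 3110.4 in PSC, 3276 in PP1 and 3470.3 in PP2, against 3024 in MSC. This was noticed after the values were seen and was not tested, and the labels do not say what a replicate number stands for.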
